A study of Mus musculus with 6 samples.

Results

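The distal part of mouse chromosome 12 examined here begins at base 74300701 of the mm10 build and runs to the chromosome's end, over 45.8 Mb. Its members are the regions of accessible chromatin listed there in neural stem/progenitor cells (NSPCs), which are embryonic stem cell-derived cells that divide in culture and can form neurons and glia. Both conservative peak lists together held 190252 distinct intervals, of which 4500 started there or beyond. The parent list held 1764 of them and the deletion list 2746, with 10 of identical ends in both. The base was chosen from the same read values that are described below, as the point along the chromosome where the ratio between genotypes shifts, and so the classes, read ratios and background ratios of the segment are given as a description with no test.

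The cells came from 129S1/Cast F1 hybrid embryonic stem cells that carry a *Sox2*-mCherry reporter on the 129 allele. The parent group was Clone 5B with no deletion, and the deletion group was Clone 47D, which carries the same reporter and a homozygous deletion of SRR2-18, a cluster of enhancers of the neural stem cell regulator *Sox2* on chromosome 3. Each genotype was therefore 1 clone, grown as 3 cultures on poly-d-lysine and laminin in N2B27 medium with EGF and bFGF. Chromatin was assayed by ATAC-seq, in which a transposase inserts sequencing adapters into open DNA of 30000 cells, at 50 to 60 M reads per culture, as the labels give them. The lists pool the cultures of a genotype and hold 1 value per peak, so the spread between cultures cannot be seen and no comparison between genotypes was tested.

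The label was checked against marker genes of NSPCs and of other cell types. All 8 NSPC marker genes, including *Sox1*, *Sox2*, *Nes* and *Pax6*, had a promoter interval in both lists. On the depth scale given below all 8 had fewer reads in the deletion list. Their log2 ratios of deletion over parent ran from -2.09 at *Sox1* to -0.04 at *Vim*, where the median promoter of the other autosomes stood at -0.47. Astrocyte (0 of 3), liver (0 of 2) and B cell (0 of 2) markers had none in either list, whereas mesenchymal markers had 2 of 3 in the parent and 3 of 3 in the deletion list (*Pdgfrb* in addition) and neuronal markers 1 of 3 and 2 of 3. Oligodendrocyte lineage markers had 2 of 3, mesoderm markers 1 of 2 and pluripotency markers 1 of 5 in both lists. Where these other markers had an interval in both lists, the log2 ratios ran from -3.17 at *Olig2* to 1.0 at *Col1a1*, the only one above 0. Between 3 and 25 kb downstream of the *Sox2* start, on the side of the deleted enhancers, the parent list held 5 intervals and the deletion list 0.

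Open chromatin marks promoters in most cell types, whereas open regions away from promoters are mostly enhancers and insulators whose use differs between cell types. The segment holds 364 protein-coding genes, among them the AP-1 subunit gene *Fos*, the synaptic adhesion gene *Nrxn3*, the transcription factor gene *Bcl11b*, a cluster of 23 *Serpina* genes for protease inhibitors that are best known from liver, and the immunoglobulin heavy chain locus, which is rearranged in B cells. It also holds the imprinted *Dlk1*-*Dio3* domain, where *Dlk1*, *Rtl1* and *Dio3* are expressed from the paternal chromosome and the non-coding genes *Meg3*, *Rian* and *Mirg*, with a large group of microRNAs, from the maternal one.

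To show what the strongest genotype-specific regions look like, the bases around their summits are given below from the GRCm38 reference (100 bases to either side, plus strand). The reference is of another strain, and the 129S1 and Cast alleles of the cells may differ from it. The first 4 are among the 5 deletion-only intervals of the segment with the highest fold enrichment, the next pair has the highest fold enrichment within the imprinted domain, and the last 3 are among the 5 strongest parent-only intervals. Capitals mark the AP-1 word TGAGTCA on either strand, which AP-1 dimers such as FOS-JUN bind, and the E-box CAGCTG, bound by basic helix-loop-helix factors. A SOX word (AACAAAG or AACAATG, either strand) would be in capitals too, but these windows hold none.
Deletion-only interval in an intron of *Cox16*, chr12:81409073-81409273: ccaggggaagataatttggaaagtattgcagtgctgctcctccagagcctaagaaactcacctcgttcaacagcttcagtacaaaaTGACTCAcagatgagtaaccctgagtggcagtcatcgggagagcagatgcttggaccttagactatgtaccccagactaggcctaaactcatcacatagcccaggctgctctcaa
Deletion-only interval in an intron of *Catsperb*, chr12:101511371-101511571: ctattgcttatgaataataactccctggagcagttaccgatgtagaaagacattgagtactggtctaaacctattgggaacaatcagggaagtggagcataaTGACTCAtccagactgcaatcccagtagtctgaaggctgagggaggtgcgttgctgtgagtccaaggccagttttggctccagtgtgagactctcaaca
Deletion-only interval between genes, nearest to *Ttc8*, chr12:99017533-99017733: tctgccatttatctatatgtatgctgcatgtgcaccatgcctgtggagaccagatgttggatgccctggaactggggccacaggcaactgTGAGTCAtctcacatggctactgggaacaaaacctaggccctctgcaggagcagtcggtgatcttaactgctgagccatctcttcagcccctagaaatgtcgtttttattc
Deletion-only interval past the 3′ end of *Flrt2*, chr12:95790233-95790433: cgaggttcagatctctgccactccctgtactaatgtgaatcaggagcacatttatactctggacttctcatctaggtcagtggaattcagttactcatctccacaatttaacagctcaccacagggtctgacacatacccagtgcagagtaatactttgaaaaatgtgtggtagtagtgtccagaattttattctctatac
Deletion-only interval between *Mirg* and *Dio3*, the first, chr12:109764419-109764619: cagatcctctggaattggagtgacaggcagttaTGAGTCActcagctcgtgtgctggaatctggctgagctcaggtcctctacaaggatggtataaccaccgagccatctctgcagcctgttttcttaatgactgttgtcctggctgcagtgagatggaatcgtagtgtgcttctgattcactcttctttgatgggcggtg
Deletion-only interval between *Mirg* and *Dio3*, the next, chr12:109845647-109845847: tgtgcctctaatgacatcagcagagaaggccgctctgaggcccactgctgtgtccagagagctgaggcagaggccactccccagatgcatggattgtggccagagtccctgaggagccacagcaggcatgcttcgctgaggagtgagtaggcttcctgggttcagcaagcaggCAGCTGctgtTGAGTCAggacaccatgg
Parent-only interval in an intron of *Nrxn3*, chr12:88910863-88911063: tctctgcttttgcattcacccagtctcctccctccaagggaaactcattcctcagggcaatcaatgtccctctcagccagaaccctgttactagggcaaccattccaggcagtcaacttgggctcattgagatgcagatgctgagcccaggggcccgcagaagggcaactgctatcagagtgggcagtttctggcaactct
Parent-only interval in an intron of *Ston2*, chr12:91654455-91654655: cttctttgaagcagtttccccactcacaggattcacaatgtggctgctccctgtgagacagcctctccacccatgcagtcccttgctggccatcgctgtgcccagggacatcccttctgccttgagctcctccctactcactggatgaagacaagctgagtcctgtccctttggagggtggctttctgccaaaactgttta
Parent-only interval between genes, nearest to *Fut8*, chr12:77716186-77716386: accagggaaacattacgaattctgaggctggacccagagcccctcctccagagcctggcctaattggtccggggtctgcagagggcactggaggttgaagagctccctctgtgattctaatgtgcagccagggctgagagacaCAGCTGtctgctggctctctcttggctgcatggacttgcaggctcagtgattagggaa
The AP-1 word stands in 5 of the 6 deletion-only windows printed here and in none of the 3 parent-only windows. The deletion-only interval ranked 3 in the segment, whose window overlaps a UTR, and that ranked 3 in the domain are not printed, and neither holds the word, which makes 5 of 8. These windows were picked by fold enrichment. Over the whole segment the word was in 36.7% of the deletion-only, 1.88% of the parent-only and 18.7% of all listed intervals.

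The printed regions were strong peaks in the list that held them. The interval in *Cox16* (chr12:81408892-81409527) had 1312 summit reads in the deletion list, with a fold enrichment over the local background of 33.2, that in *Catsperb* 1106 reads (30.8) and that nearest to *Ttc8* 664 reads (29.8). The interval past *Flrt2*, 94976 bp from the nearest of that gene's start sites, had 1631 reads (32.4) and none of the marked words. The pair in the imprinted domain had 1711 reads (26.8) and 1892 reads (26.1). In the parent list the interval in *Nrxn3*, 42.4 kb from the nearest of that gene's start sites, had 2284 reads (33.1). That in *Ston2*, which encodes an endocytic adaptor, had 2733 (31.7), and that nearest to *Fut8*, 477 kb away, 3733 (27.8). Read numbers of the lists cannot be set side by side here, because the parent list is deeper, by 1.98 times on the scale given below. No interval of the other list overlapped any of these regions.

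The deletion list held more intervals in the segment than the parent list, and by a wider margin than on the rest of the chromosome. An interval was called shared when it overlapped an interval of the other list by at least 1 bp. In the segment 1828 intervals were deletion-only, 850 were parent-only and 1822 were shared, which is 40.6% (95% Wilson interval 39.2 to 42.1), 18.9% (17.8 to 20.1) and 40.5% (39.1 to 41.9). Over all distinct intervals of both lists 35.6% were deletion-only and 22.8% parent-only. Chromosome 12 before the segment, with 4589 intervals, had 38.5% (37.1 to 39.9) deletion-only and 25.8% (24.6 to 27.1) parent-only. The segment thus held 2.15 deletion-only intervals per parent-only interval (95% interval 1.98 to 2.33), against 1.49 (1.38 to 1.60) before it. With both lists limited to the same length by fold enrichment these ratios were 1.25 and 1.04, and without intervals that hold the AP-1 word, a setting chosen after seeing the data, they were 1.39 and 0.879, the latter with parent-only intervals in excess. The other 18 autosomes ranged from 1.29 on chromosome 11 to 1.81 on chromosome 14, below the segment's interval. These intervals cover counting error only, since fragments amplified by PCR are not independent and cultures are not separated.

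The share of parent intervals with a partner was also larger in the segment. Of the parent intervals in the segment 51.8% had a partner in the deletion list, against 40.7% before the segment and 47.7% on the other autosomes. In the deletion list 33.4% of the segment's intervals had a partner in the parent list, against 31.9% before it and 37.2% on the other autosomes. Per megabase, the parent list held 38.5 intervals in the segment and 26.9 before it, and the deletion list 59.9 and 34.9.

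Reads at the summit moved with the classes. The deposited fold enrichment and -log10 p of a peak together fix how many reads piled up at its summit and how many its local background predicted, and both were solved for each peak. Where the surroundings added nothing, the floor of the background was 38.8 parent and 19.7 deletion reads, and this ratio of 1.98 was used to put both lists on 1 depth scale. The 926 overlapping pairs of the segment had a median log2 ratio (deletion over parent) of depth-scaled summit reads of 0.54 (95% interval of the median 0.48 to 0.59, interquartile range 0.02 to 1.23). The 832 pairs before the segment had a median of -0.26 (-0.34 to -0.20), and the 37304 pairs of the other autosomes -0.25 (-0.26 to -0.24), with the single chromosomes between -0.30 on chromosome 4 and -0.12 on chromosome 13. Outside the segment the medians were thus below 0 on this scale, and measured against the other autosomes the segment stood at 0.79, a 1.73-fold higher ratio.

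Single pairs showed the same displacement. In the segment 433 pairs (46.8%) had at least 1.5-fold more depth-scaled reads in the deletion list, where 22.6% of all 40114 pairs did. In the other direction 119 pairs (12.9%) had at least 1.5-fold fewer, where 31.3% of all pairs did. Before the segment these shares were 23.3% and 34.9%. The spread around the median was wide in both stretches, and 700 of the segment's 926 pairs (75.6%) had more depth-scaled reads in the deletion list, against 38.1% before it.

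The local background was displaced in the same direction as the summits, by 0.52 on the log2 scale against the stretch before the segment, where summit reads were displaced by 0.80. This value is the number of reads that the peak caller expects at a summit from the reads around it. Its median log2 ratio was 0.41 (0.36 to 0.47) in the segment, -0.11 (-0.20 to -0.02) before it, and between -0.24 and 0.00 on the single other autosomes. In the deletion list alone, without any scaling between lists, the median background of the segment's intervals was 44.9 reads against 25.2 before it, a 1.78-fold difference, and the other autosomes lay between 26.7 and 35.5. In the parent list the same medians were 68.9 and 52.7 reads, a 1.31-fold difference, and the other autosomes lay between 50.8 and 80.8. The fold enrichment of the pairs had a median log2 ratio of 0.06 (0.02 to 0.09) in the segment and -0.02 (-0.07 to 0.03) before it. At pairs outside promoters the segment's medians were 0.68 for summit reads, 0.38 for background and 0.17 (0.09 to 0.25) for fold enrichment. The lists count reads, so the number of copies of this DNA in the cells and the openness of each copy cannot be told apart from them.

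**Figure D1:**
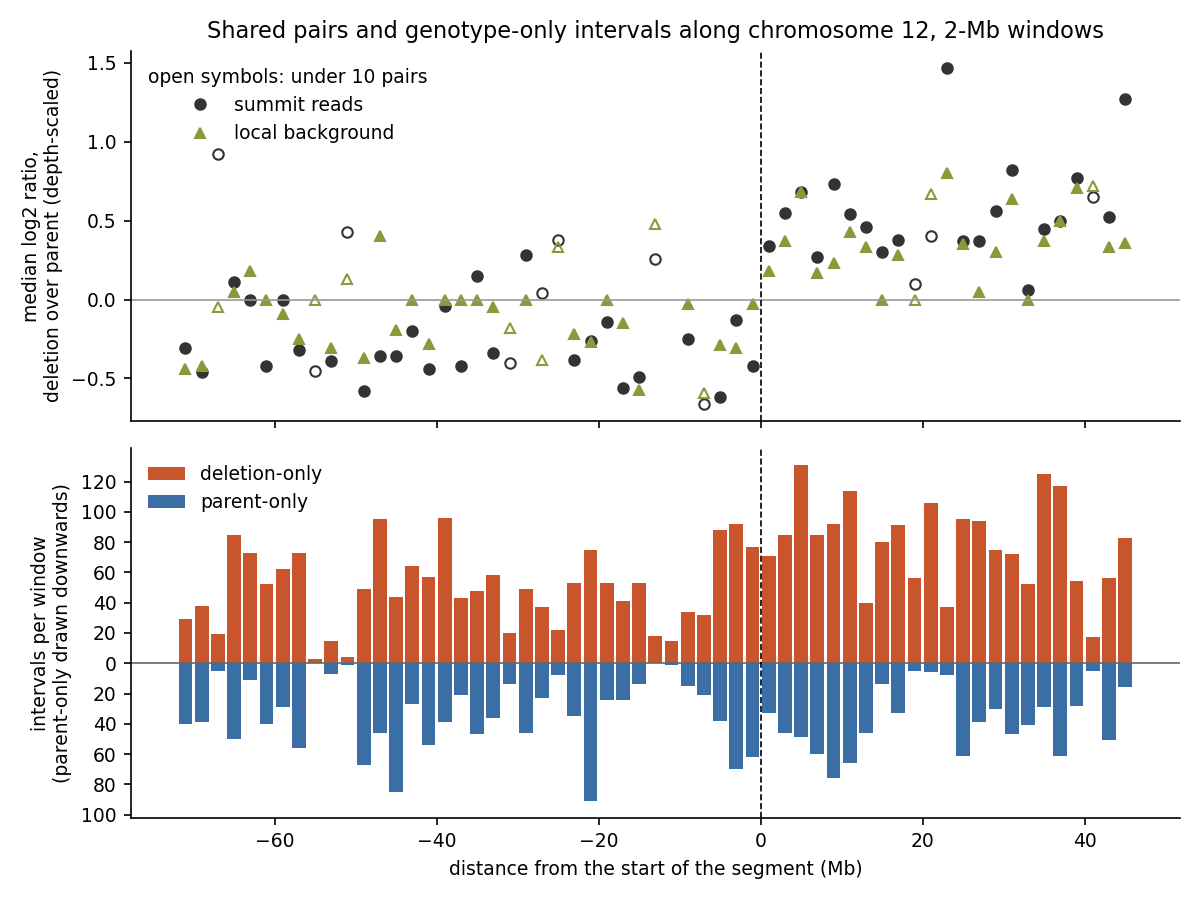
Chromosome 12 in windows of 2 Mb, with distance from the start of the segment in Mb on the x axis and a dashed line at that start. Upper panel: median log2 ratio (deletion over parent, depth-scaled) of summit reads (circles) and local background (triangles) over overlapping pairs, open where a window has under 10 pairs. All 20 filled circles of the segment lie above 0, from 0.06 to 1.47, against 3 of 27 before it. The circle at 1.47 rests on 11 pairs. Lower panel: deletion-only intervals drawn upwards and parent-only intervals drawn downwards, per window.

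The shift was present along the length of the segment. Of its 2-Mb windows with at least 10 pairs, 20 of 20 had a median summit ratio above 0, from 0.06 to 1.47, and 18 of 20 had a median background ratio above 0. Before the segment 3 of 27 such windows had a summit median above 0, from -0.62 to 0.28 in all, and 3 had a background median above 0. The segment's window at 1.47 has 11 pairs. They include the tallest peak described below, itself at 1.47, whose sequence is in part also mitochondrial. In 10-Mb windows with at least 20 pairs, the 4 that lie wholly in the segment had summit medians of 0.42 to 0.64, and 253 windows of the other chromosomes ranged from -0.56 to 0.66. The window at 0.66 lies on chromosome 5 with 64 pairs, and its background median was 0.01. In background the 4 windows of the segment lay at 0.35 to 0.56, above the highest value elsewhere, 0.20 on chromosome 7.

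Few intervals lie on either side of the segment's start. Just outside, a shared promoter interval (parent bases 74283867 to 74285085) had 4644 reads in the parent list and 1700 in the deletion list, a log2 ratio of -0.47, and the next pair, 7.0 kb before the base, had 198 and 106 reads and a ratio of 0.08. Just inside, the parent list had a parent-only interval with 594 reads, and the first pairs had 770 against 494 reads (0.34) and 471 against 388 reads (0.70). The deletion list had a deletion-only interval of 125 reads as the farthest of its 3 nearest intervals outside and one of 168 reads as the farthest of its 3 nearest inside. The base itself lies in the non-coding gene *Dbpht2*.

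Most promoters of the segment had more reads in the deletion list, whereas most promoters elsewhere had fewer on the same scale. A gene's promoter value was the strongest interval whose summit lay within 1 kb of one of its start sites. It was taken in each list separately, so the parent and deletion values of a gene with several start sites can come from different intervals. Of the 364 protein-coding genes of the segment, 242 had such an interval in both lists, 27 in the deletion list alone, 6 in the parent list alone and 89 in neither. Before the segment 15 of 279 genes had one in the deletion list alone and 5 in the parent list alone. On the other autosomes 1219 and 568 of 20164 genes did, so the deletion list had more there too. Among the 242, 195 (80.6%) had more depth-scaled reads in the deletion list, with a median log2 ratio of 0.40 (0.34 to 0.46, interquartile range 0.16 to 0.61). Before the segment 21 of 218 genes (9.63%) did, with a median of -0.48 (-0.58 to -0.42), and on each other autosome between 10.2% and 16.2%, with medians from -0.54 on chromosome 1 to -0.40 on chromosome 7. When the depth scale was set instead so that the shared pairs of the other autosomes centre on 0, the counts were 220 of 242 in the segment and 53 of 218 before it. The middle range of the segment's genes did not overlap that of the genes before it, -0.80 to -0.25.

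**Figure D2:**
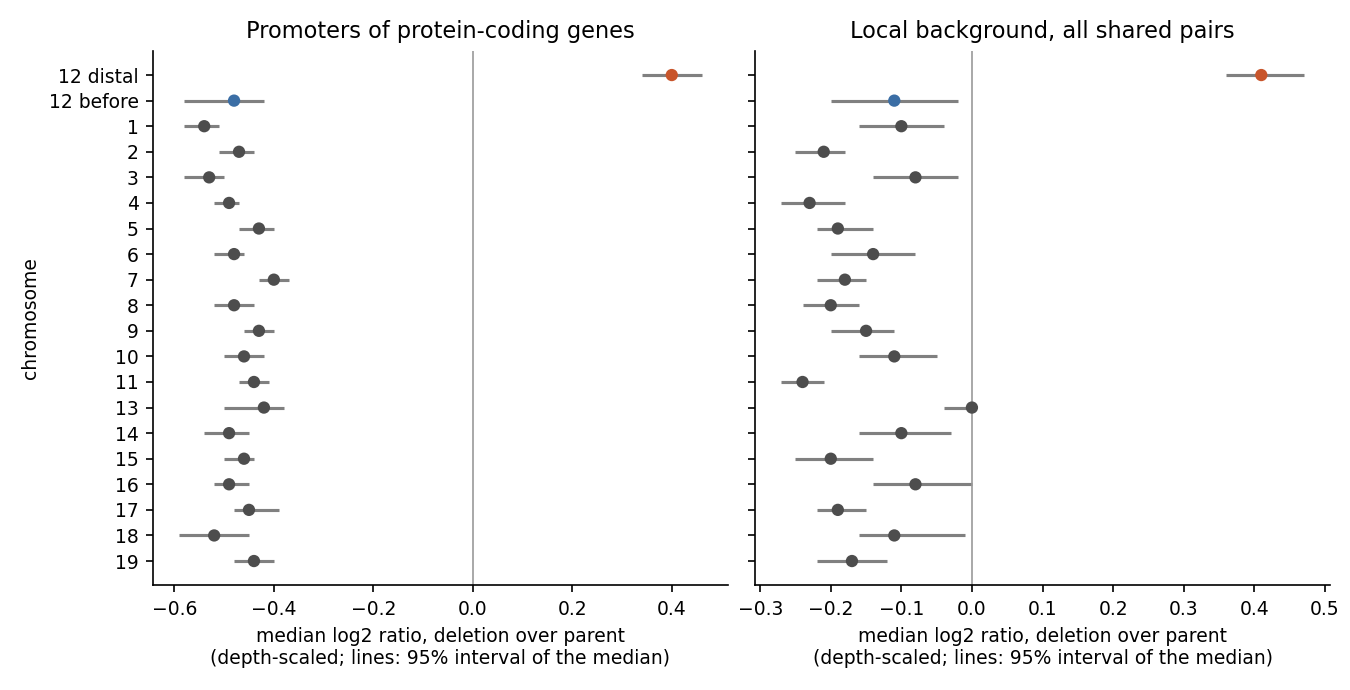
Median log2 ratio (deletion over parent, depth-scaled; x axis) for distal chromosome 12, chromosome 12 before the segment and each other autosome (y axis). Left, promoters of protein-coding genes with an interval in both lists; right, local background of all overlapping pairs; lines are 95% intervals of the median. Distal chromosome 12 lies at 0.40 and 0.41, to the right of 0, and the other 18 autosomes and the rest of chromosome 12 lie at or below 0.

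The 5 shared pairs of the segment with the most parent reads were all promoters, and all had a read ratio above 1. *Rps6ka5*, which encodes the kinase MSK1, had 9645 parent reads and 13624 depth-scaled deletion reads, a ratio of 1.41. *Zfyve21* had 9369 and 14147 (1.51), and the heat shock protein gene *Hspa2* had 9146 and 14234 (1.56). *Glrx5*, needed for iron-sulphur cluster assembly, had 9122 and 15354 (1.68). *Sel1l*, a component of endoplasmic reticulum-associated degradation, had 8968 and 11914 (1.33). Their fold enrichments lay closer together than their reads, for example 15.8 and 17.5 at *Rps6ka5* and 21.1 and 22.1 at *Sel1l*.

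Genes of the protein synthesis, chaperone and cytoskeletal machinery, listed as a group of 13 whose promoters are open in most cells, all had a promoter interval in both lists, with a median log2 ratio of 0.29. Of these 9 were above 0 and 4 below, or 12 and 1 on the scale centred on the other autosomes. The translation initiation factor gene *Eif5* had 8643 parent reads and 12553 depth-scaled deletion reads (log2 ratio 0.54), the actin crosslinker *Actn1* 6541 and 9840 (0.59), the kinase gene *Vrk1* 7624 and 11418 (0.58), and the microRNA-processing nuclease *Dicer1* 4987 and 6730 (0.43). The dynein heavy chain gene *Dync1h1* stood at 0.30 and *Hsp90aa1* at 0.29. The kinesin light chain gene *Klc1* was the lowest, at -0.44, with 2647 and 1948 reads. The range of this group, -0.44 to 0.59, was the narrowest of the groups with more than 4 such promoters.

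Of the 3 AP-1 subunit genes in the segment, *Fos* and *Jdp2* had promoter intervals in both lists and *Batf* in neither. At *Fos* (chromosome 12, 85473890 to 85477273, plus strand) the promoter had 3751 reads in the parent list and 2367 in the deletion list, 4677 after depth scaling, a log2 ratio of 0.32 with fold enrichments of 9.04 and 8.32. *Jdp2*, whose product represses AP-1 targets, had 4851 and 5005 (0.05). Both values lay below the segment's median promoter ratio of 0.40. Among the intervals that were nearest to these genes and within 50 kb of a start site, parent-only ones were the more frequent: 6 parent-only and 5 deletion-only at *Fos*, 7 and 6 at *Jdp2*, 4 and 1 at *Batf*, or 17 and 12 in all.

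Notch pathway genes were open at their promoters in both lists but for *Dlk1*. *Numb*, an inhibitor of Notch that is passed unequally to daughter cells, had 7592 parent and 12598 depth-scaled deletion reads (log2 ratio 0.73). *Snw1*, a cofactor of Notch transcription complexes, stood at 0.34. *Jag2*, a Notch ligand, was the one below 0, with 1449 and 927 reads (-0.64, and -0.39 on the scale centred on the other autosomes).

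Genes listed as transcription factors, a list that also takes in other regulators of gene expression such as *Dpf3*, *Rcor1* and *Zfp36l1*, spread most widely. Of the 15 listed genes that lie in the segment, 12 had a promoter interval in both lists, 2 in the deletion list alone and 1, *Prox2*, in neither. The median of the 12 was 0.58, with 6 at 1.5-fold or more above the parent and 1 at 1.5-fold or more below. *Gsc*, a homeobox gene of the gastrula organiser, had 235 parent reads at the background floor and 1543 depth-scaled deletion reads (log2 ratio 2.72). *Bcl11b*, needed by deep-layer cortical and striatal neurons and by T cells, had 1792 and 4402 (1.30), and the forkhead gene *Foxn3* 3565 and 7777 (1.13). The 1 overlapping pair inside *Bcl11b* stood the other way, at -1.35, and the 4 pairs between *Bcl11b* and *Setd3* had a median of 0.49. The broadly expressed factors *Max*, the partner of MYC, *Yy1* and *Sp4* stood at 0.53, 0.52 and 0.64. *Esrrb*, a nuclear receptor of the pluripotency network, was the lowest at -1.40, with 2370 and 899 reads, and was the one of 5 pluripotency marker genes with a promoter interval in either list. *Sp8*, used in telencephalic patterning and limb outgrowth, had a promoter interval in the deletion list alone, of 487 reads and fold enrichment 3.72.

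Genes of synapses, adhesion and ion transport were all open at the promoter in both lists, with a median log2 ratio of 0.23 over 11 genes. Above 0 stood 7 of them, or 10 on the scale centred on the other autosomes. *Nrxn3*, a presynaptic adhesion receptor (chromosome 12, 88722876 to 90334935), had 2955 parent reads and 9788 depth-scaled deletion reads (log2 ratio 1.73). The 5 overlapping pairs inside *Nrxn3* had a lower median log2 ratio, 0.32. The potassium channel gene *Kcnk13* had 416 and 2073 (2.32), and the sodium-calcium exchanger gene *Slc24a4* 493 and 1413 (1.52). *Kcnh5*, a voltage-gated potassium channel, had 2560 and 1531 (-0.74), the lowest of the group. *Gphn*, the scaffold of inhibitory synapses, stood at 0.30, near the middle.

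Of the growth factor and matrix genes, 5 of 7 had promoter intervals in both lists, with a median log2 ratio of 0.76. *Ltbp2*, a microfibril protein related to the latent TGF-beta binding proteins, had 533 parent and 1881 depth-scaled deletion reads (1.82), and *Tgfb3*, a TGF-beta ligand, 2881 and 4882 (0.76). *Smoc1*, a secreted modulator of BMP signalling, had 1955 and 1110 (-0.82), the reverse of its neighbours in the list. Fold enrichment was lower in the deletion list at *Ltbp2* (11.7 parent, 6.18 deletion) and *Tgfb3* (9.27, 8.77). At *Smoc1* it was higher (12.4, 14.1). The local background at *Ltbp2* had a log2 ratio of 2.76, above that of its summit reads. The bradykinin receptor gene *Bdkrb2* had a promoter interval of 2389 reads and fold enrichment 13.4 in the deletion list alone, and *Dio2*, which activates thyroid hormone, had none in either list.

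**Figure D3:**
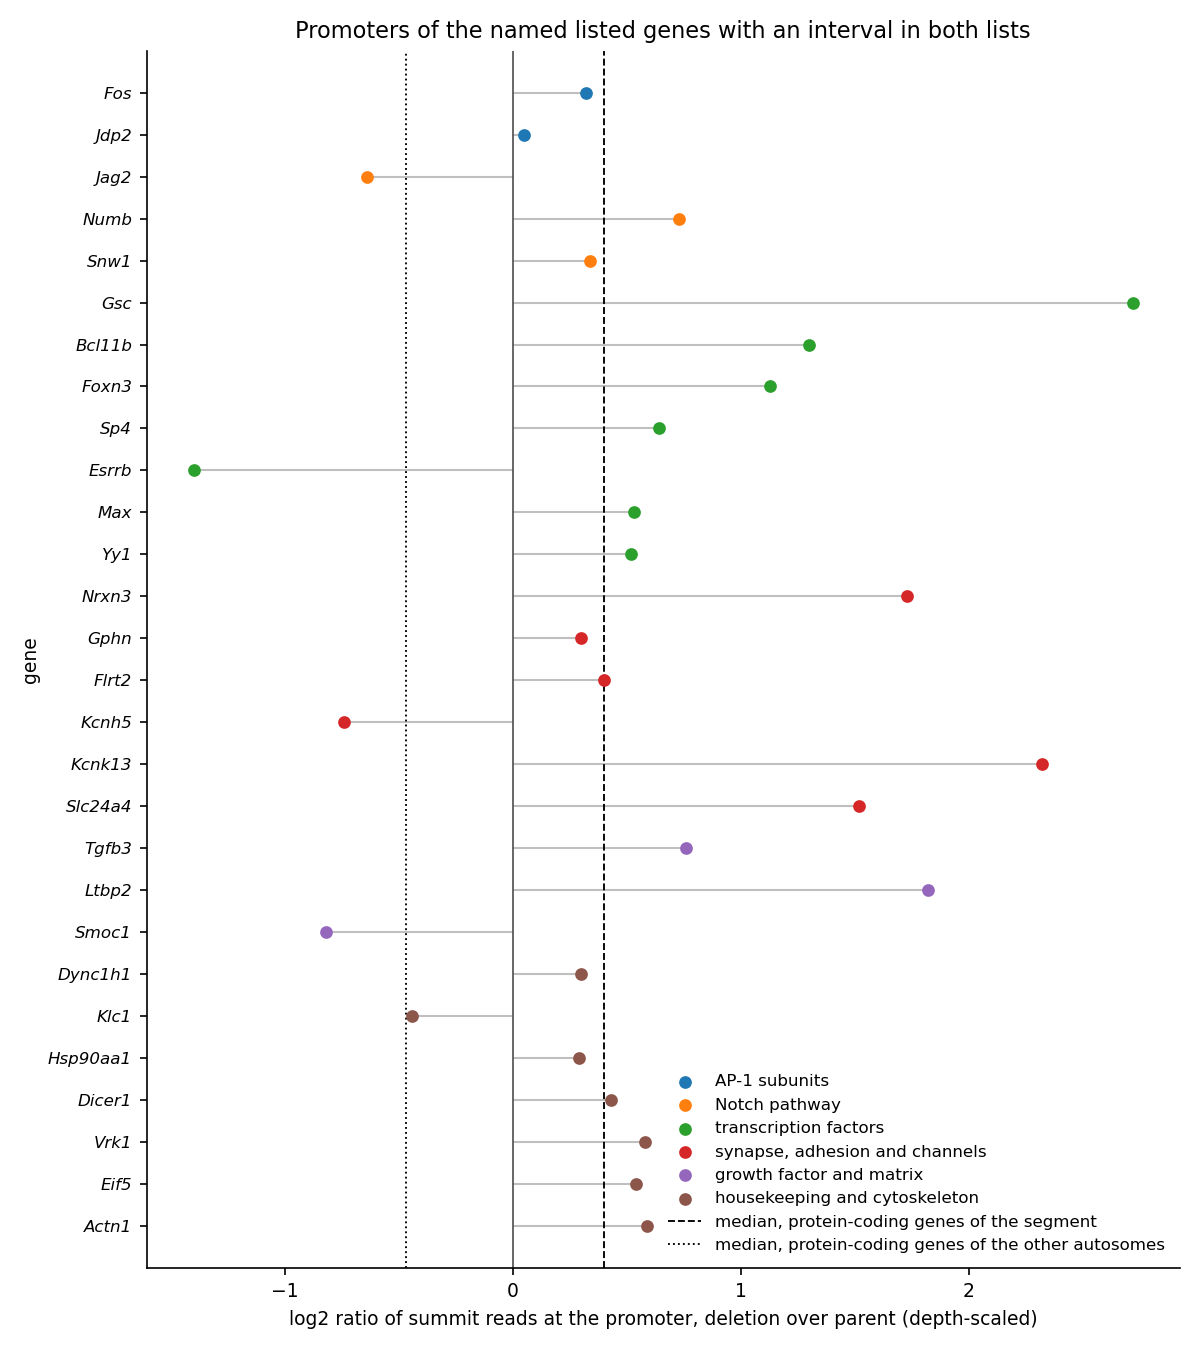
Log2 ratio of depth-scaled summit reads at the promoter (deletion over parent; x axis) for 28 of the 47 listed genes of the segment with a promoter interval in both lists, those named in the text (y axis), coloured by gene list. The dashed line is the median of the segment's protein-coding genes, 0.40, and the dotted line that of the other autosomes, -0.47; 23 of the 28 genes drawn lie above 0 (also 23 on the scale centred on the other autosomes), as do 35 of all 47 (42 on that scale), and *Esrrb*, at -1.40, is the lowest.

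The *Dlk1*-*Dio3* imprinted domain was listed as open in the deletion genotype alone. Between the start of *Dlk1* and the end of *Dio3* (chromosome 12, 109452823 to 110281097, 828 kb) the parent list held no interval and the deletion list held 64, all deletion-only. The optimal lists, the longer lists that the same pipeline gives, held 0 and 72. Of the 6 domain genes, 4 had a promoter interval in the deletion list and none in the parent list. *Dlk1*, a Delta-like transmembrane protein of progenitor cells, had 1208 reads there (fold enrichment 9.18), *Meg3* 1848 (6.42), *Rian* 680 (9.81) and *Dio3*, which inactivates thyroid hormone, 592 (8.52). *Rtl1*, a retrotransposon-derived gene, and *Mirg* had none. The 64 intervals carried 131 to 5964 reads with a median of 564, and fold enrichments from 2.55 to 26.8 with a median of 9.20, near the 10.1 of all the deletion list's intervals in the segment. The 3 with the highest fold enrichment lay between *Mirg* and *Dio3*, a stretch with no protein-coding gene (sequences of the first pair above), and 19 of the 64 held the AP-1 word. The nearest parent intervals lay 2.7 kb before *Dlk1* and 92.5 kb past *Dio3*.

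For scale, the autosomes were divided into 2963 windows of the same length. Of these 275 held no parent interval, and 168 of the 275 held at least 1 deletion interval. None of the 275 held as many as 64, and the most in one of them was 45, on chromosome 16. The domain lies in a segment chosen from the ratio between genotypes and has gene ends as bounds, so these counts are no test.

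**Figure D4:**
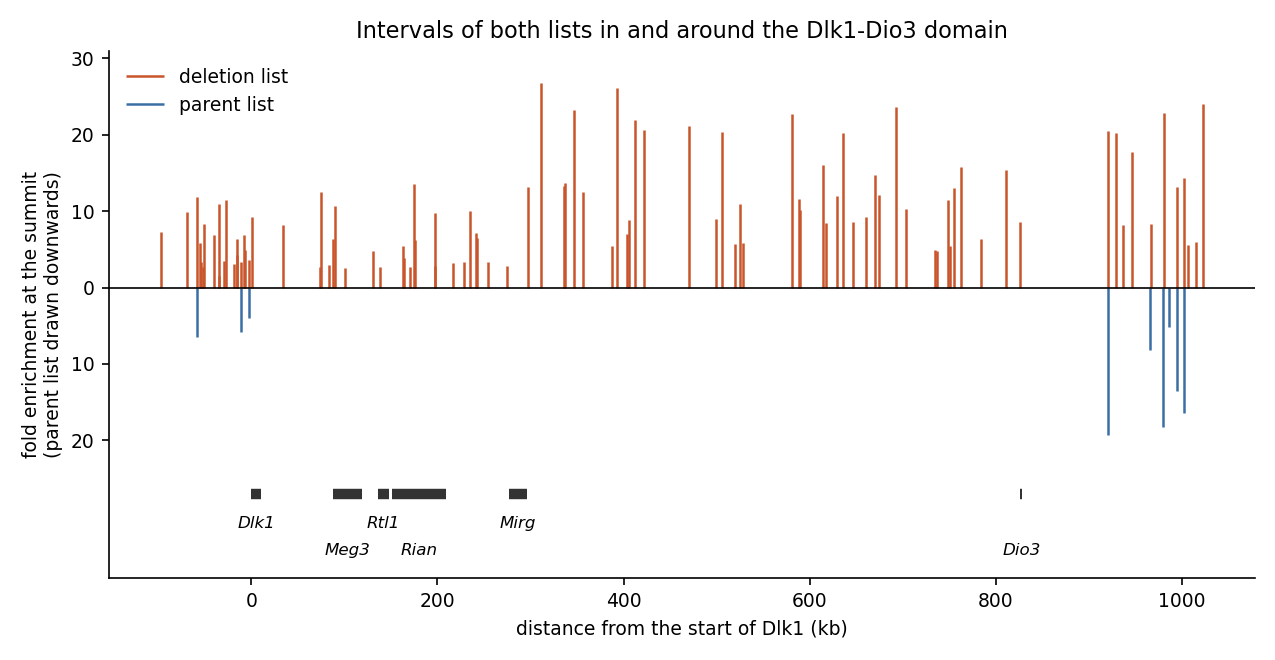
Fold enrichment (y axis) of each listed interval in and around the imprinted domain, by distance from the start of *Dlk1* in kb (x axis). Deletion intervals are drawn upwards and parent intervals downwards, and bars at the bottom mark the genes. Between *Dlk1* and *Dio3* there are 64 deletion intervals and no parent interval.

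Other stretches of the segment differed in how their intervals fell between the lists, and were picked after the values along the chromosome had been seen. Over the gene body of *Nrxn3*, 1.61 Mb, the parent list held 16 intervals, 11 of them parent-only, and the deletion list 81, 76 of them deletion-only. From the end of *Nrxn3* to the start of *Flrt2*, 5.36 Mb, the counts were 64 (40 parent-only) and 252 (228 deletion-only), and 36.4% of those 228 held the AP-1 word. *Flrt2* itself encodes an adhesion protein that guides axons. The *Serpina* cluster held 1 and 22 intervals, and of the 5 listed serpin genes *Serpina3n*, an acute-phase inhibitor also made by reactive astrocytes, was the one with a promoter interval, of 93 reads, in the deletion list. The immunoglobulin heavy chain locus held 6 and 17 intervals over 2.76 Mb, few in either list. Over the gene bodies of *Foxn3*, with 29 and 23 intervals, and *Ptprn2*, with 34 and 33, the lists were nearly even.

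The genes nearest to the most deletion-only intervals within 50 kb of a start site were *Sipa1l1*, *Macc1*, *Nrxn3*, *Rin3* and *Syne3*. *Sipa1l1*, a postsynaptic Rap GTPase regulator, had 19, but also 13 parent-only and 10 shared, and its promoter stood at 0.29. *Macc1*, a transcriptional regulator of the receptor gene *Met*, had 18 deletion-only and 2 parent-only intervals, and a promoter interval of 745 reads in the deletion list alone. *Rin3*, a RAB5 exchange factor, had 17 and 0, and its promoter held 190 parent reads and 2055 depth-scaled deletion reads, a ratio of 10.8. *Syne3*, a nuclear envelope linker, had 15 and 2, with 1724 and 3053 promoter reads (1.77). *Nrxn3* had 18 and 5. Promoter fold enrichment was lower in the deletion list at *Rin3* (4.79 parent, 4.03 deletion), *Syne3* and *Nrxn3*, and higher at *Sipa1l1* (10.9, 11.8). The local background at *Rin3* had a log2 ratio of 3.71, above the 3.43 of its summit reads. The same values were 2.04 and 0.82 at *Syne3*, and 1.95 and 1.73 at *Nrxn3*. At *Sipa1l1* the background stood lower than the summit reads, at 0.17 against 0.29. These 5 genes were picked by their deletion-only counts, so an excess of that class at them follows in part from the choice. At 4 of them deletion-only intervals outnumbered parent-only ones more than 3-fold, where the whole segment held 2.15 per parent-only interval. *Sipa1l1* was a busy locus in both lists.

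The genes with the most parent-only intervals were *Rapgef5*, *Sipa1l1*, *Clmn*, *Galnt16* and *Eml1*. *Rapgef5*, a Rap guanine nucleotide exchange factor, had 13 parent-only and 3 deletion-only intervals, although its promoter had 890 parent and 2717 depth-scaled deletion reads (log2 ratio 1.61). *Clmn*, a calponin-domain membrane protein, had 10 and 6, with a promoter ratio of -0.15. *Galnt16*, a glycosyltransferase, had 9 and 2 (-0.18), and *Eml1*, a microtubule-binding protein whose loss displaces neural progenitors in the cortex, had 8 and 8 (-0.10). On the scale centred on the other autosomes the promoters of these last 3 stand above 0.

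Counted by gene, 308 protein-coding genes were nearest to at least 1 interval within 50 kb. Of these 88 (28.6%) had deletion-only and no parent-only intervals, 24 (7.79%) the reverse, 169 both classes and 27 shared intervals alone. Before the segment the first 2 shares were 24.7% and 8.99% of 267 genes. Many genotype-specific intervals were far from any coding start: 882 (48.2%) of the deletion-only and 364 (42.8%) of the parent-only intervals of the segment lay beyond 50 kb, against 64.0% and 60.7% before it.

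By position, 15.1% (14.1 to 16.2) of the segment's intervals in both lists lay at promoters. Promoters made up 29.1% of the shared intervals in the parent list, 4.71% (3.47 to 6.34) of the parent-only and 6.02% (5.02 to 7.20) of the deletion-only intervals. Promoters made up 3.96% (3.15 to 4.98) of the deletion-only intervals before the segment and 5.58% (5.40 to 5.76) on the other autosomes, the latter within the segment's interval. The 110 deletion-only promoter intervals of the segment stood against 40 parent-only ones, a ratio of 2.75 (1.92 to 3.95), where the stretch before it had 70 and 53, a ratio of 1.32 (0.92 to 1.89). Among the genes whose promoter was listed for the deletion genotype alone, *Fbln5*, an elastic fibre protein, had the highest fold enrichment, 16.9 at 2691 reads, and among the 6 listed for the parent alone *Fam181a* had the most reads, 2438; both were picked after their values were seen.

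Motif content was not used to choose the segment. Within 100 bp of the summit, the AP-1 word was found in 671 of 1828 deletion-only intervals (36.7%, 34.5 to 38.9) and in 16 of 850 parent-only intervals (1.88%, 1.16 to 3.04). Over all intervals of both lists on the other autosomes 19.7% held it, and 3.38% of windows of the same length placed 500 bp away. The deletion-only share was below that of the stretch before the segment, 42.9% (40.6 to 45.2), and of the other autosomes, 41.7% (41.3 to 42.1), and these intervals do not overlap. Among shared intervals the AP-1 word was the less frequent, in 6.56% of the parent list's and 10.6% of the deletion list's. The 56 pairs of the segment that held it on both sides had a median log2 read ratio of 1.98 (1.40 to 2.32), against 0.93 (0.53 to 1.44) for 80 pairs before the segment and 0.80 (0.72 to 0.87) on the other autosomes. The 825 pairs with the word on neither side stood at 0.49 (0.43 to 0.54), against -0.34 (-0.41 to -0.26) before the segment. The segment's pairs thus stood above those of the stretch before it with and without the motif.

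Parent-only intervals were richer in SOX and E-box words. The SOX word, bound by SOX2 and its relatives, was in 12.5% (10.4 to 14.9) of the parent-only and 7.33% (6.22 to 8.62) of the deletion-only intervals of the segment, where 8.12% and 7.49% of windows 500 bp away held it and 9.22% of all intervals on the other autosomes did. On the other autosomes the parent-only share was 14.6% (14.3 to 15.0) and the deletion-only share 8.32%, each within the segment's interval. Before the segment these shares were 15.6% (13.6 to 17.8) and 8.89% (7.65 to 10.3). Both lay above the segment's intervals, although their own intervals overlap those of the segment. The E-box was in 32.2% (29.2 to 35.5) of the parent-only and 14.9% (13.3 to 16.6) of the deletion-only intervals, with 20.3% over all intervals of the other autosomes. The same classes held it in 28.8% and 15.5% on the other autosomes, and in 28.8% and 13.4% before the segment. The CDX word TTTATNG, bound by caudal-type homeobox factors, was in 5.65% (4.29 to 7.41) of the parent-only intervals, below the 10.8% of windows 500 bp away from them, and in 11.3% (9.90 to 12.8) of the deletion-only intervals, where 11.0% of windows 500 bp away held it. These CDX shares were 5.80% and 11.1% on the other autosomes, and 6.91% and 12.3% before the segment, all within the segment's intervals.

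CTCF words were few in the deletion-only intervals. CTCF is the insulator protein found at chromatin loop ends, and a core word of its motif with open positions was searched on either strand. It was in 2.35% (1.75 to 3.15) of the deletion-only intervals, 43 in number, against 0.85% (0.52 to 1.40) before the segment and 1.5% (1.41 to 1.60) on the other autosomes. Shared intervals of the segment held it most often, 13.0% (11.0 to 15.4) in the parent list, against 8.35% (6.64 to 10.5) before it and 11.5% (11.2 to 11.9) on the other autosomes, the latter within the segment's interval. The NFI palindrome was in 4 of all 4510 listed intervals of the segment, too few to compare.

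**Figure D5:**
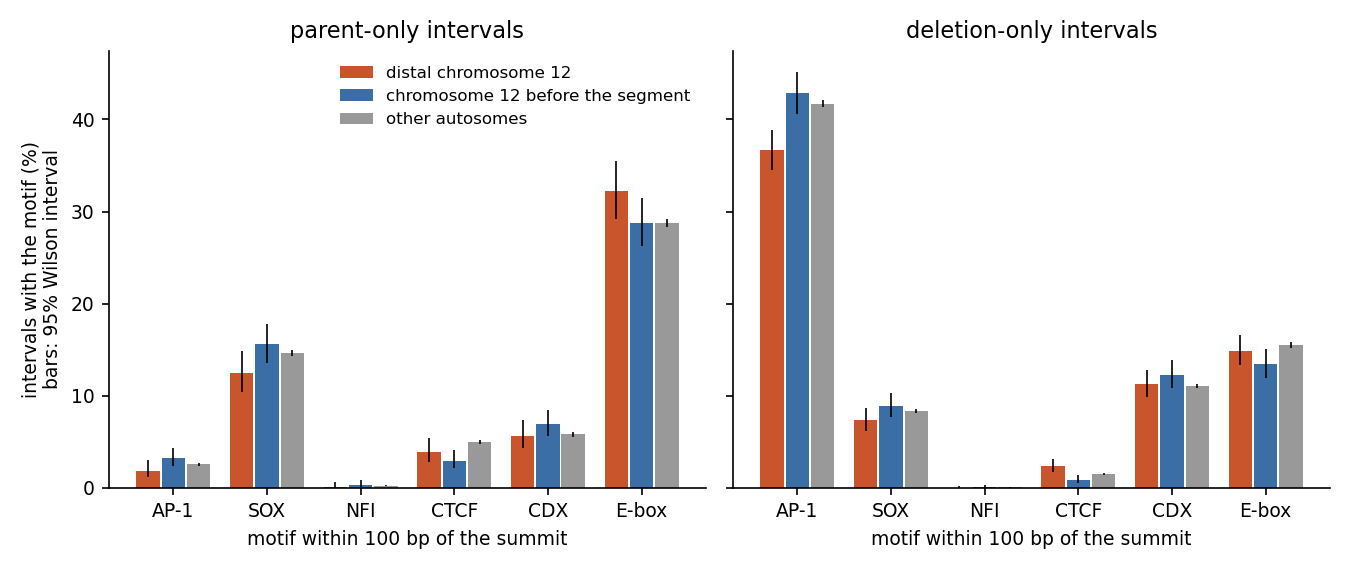
Share of parent-only (left) and deletion-only (right) intervals with each motif within 100 bp of the summit (y axis, %), for distal chromosome 12, chromosome 12 before the segment and the other autosomes; bars with 95% Wilson intervals. The AP-1 word is in 36.7% of the segment's deletion-only intervals, below 42.9% and 41.7% in the other parts, and in 1.88% of its parent-only intervals.

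The tallest peak of the deletion list, by -log10 p, also lay in the segment. It was picked after its value was seen. At bases 97061369 to 97061856, between genes, it had 10449 reads in the deletion list and 7462 in the parent list at the same ends (fold enrichments 30.8 and 29.9), a depth-scaled log2 ratio of 1.47. Of the 458 words of 31 bases in this interval 304 (66.4%) are also in the mouse mitochondrial genome, so reads from that genome and from this nuclear copy cannot be told apart there. No other interval of the segment in either list shares such a word.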

How the data were processed

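ATAC-seq was performed on 3 cultures each of parent and SRR2-18 deletion NSPCs, and both genotypes' peaks were analysed as 4 deposited lists (conservative and optimal, pooled over the cultures of a genotype). Per the study's methods, the authors used the ENCODE ATAC-seq pipeline, and the coordinates are in mm10; the submitters' processing notes name deepTools. The deposited values are an IDR score, a fold enrichment (a ratio of summit reads to local background, both plus 1), -log10 p and -log10 q, and the summit's offset. Lines with the same ends were joined into 1 interval with the values of its strongest summit, which gave 82885 parent and 107480 deletion intervals. Fold enrichment and -log10 p were turned back into summit reads and background under a Poisson model; whole reads (tolerance 0.05) came out for over 99.9% of peaks, and the solution was tested on simulated data. Scores were used for 1 alternative only, and q not at all.

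Intervals were placed by their strongest summit with GENCODE M21 (GRCm38): promoter within 1 kb of a start site, else gene body or intergenic. The nearest coding start was taken within 50 kb. Motif words were searched within 100 bp of the summit on both strands. Shares carry 95% Wilson intervals, count ratios log-scale intervals and medians order-statistic intervals; all cover counting error or the spread over pairs only. Python 3.11.15, numpy 2.4.6, pandas 2.3.3, scipy 1.17.1 and numba 0.67.0 were used. Named items were the listed genes, the 5 strongest intervals per class and the 5 shared pairs with the most parent reads, the 5 genes with the most intervals per class and the 3 intervals on either side of the boundary. The members and gene lists were chosen with earlier results of these data known. Reads per culture were not analysed here. Some listed genes are counted with their group but not reported here by name.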

Additional observations from a re-analysis of the deposited data

How the results depend on the processing

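No paired analysis was possible because the lists pool the cultures, and for the same reason no culture could be left out in turn. Over the choices set out at the start, 52 recomputed values stayed within and 18 left the interval of the value reported, and merging intervals changed nothing. The count of genes with deletion-only and no parent-only intervals has no such interval. For it a range of 1.5-fold either way, 58.7 to 132, was used, and its alternatives are among the 52. With both lists cut to the same length by fold enrichment, the deletion-only share of the segment was 34.3% and the deletion-only intervals per parent-only interval were 1.25, against 1.04 before the segment. With 50% reciprocal overlap the share was 42.8%. At promoters alone the share was 16.2%, the ratios of deletion-only to parent-only intervals were 2.75 and 1.32 (segment and before it), and the median log2 read ratios 0.378 and -0.473; without promoters the share was 45.0% and the read ratios 0.681 and -0.0820. Scaled so that the other autosomes centre on 0, the read ratios were 0.788 and -0.0133 and the segment's background ratio 0.576. A promoter distance of 2.5 kb gave a promoter share of 21.4%, and a motif window of 50 bp gave 29.7% for AP-1 and 7.29% for SOX. Without intervals that hold the AP-1 word, an alternative chosen after seeing the data, the share was 31.6% and the ratio 1.39 in the segment, while before it the ratio turned to 0.879 and the read ratio was -0.345. The segment's ratios stood above those of the stretch before it in each of these. Starting the segment 1 Mb earlier or later, leaving out the immunoglobulin locus, the optimal lists and an IDR score of at least 830 left the segment's values within their intervals. The number of genes with deletion-only and no parent-only intervals ranged from 84 to 122. With 1 clone per genotype and no values per culture, no difference here has a replicate check.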
